A study of Mus musculus with 12 samples.

Results

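Neutrophil granule genes were followed here in the main olfactory epithelium (MOE), the sheet that lines the nasal cavity and holds the olfactory sensory neurons. The members were the 10 genes S100a8, S100a9, Ngp, Camp, Ltf, Elane, Mpo, Lcn2, Prtn3 and Mmp8. Each was taken by its symbol in the platform annotation with no cut on its values, but the list was chosen with earlier results of these data known. Each symbol matched exactly 1 probe set, so 10 of 28944 experimental probe sets were members, and all 10 were among the 28151 with a mean log2 signal above 5. RNA of whole, freshly dissected MOE from mice aged 6 months was hybridised to 12 Affymetrix Mouse Gene 1.0 ST arrays, 6 for H2be-KO and 6 for WT, with the RNA of 2 animals pooled for each array. In H2be-KO mice, a line made by targeting embryonic stem cells and crossing the founders to C57Bl/6, the coding sequence of H2be (a histone H2B variant of olfactory neurons) is replaced with Gap43-mCherry, a red fluorescent protein fused to a membrane-targeting tag. WT mice carry the intact gene. The deletion is present in every cell of the animal, blood cells included, and the design describes the samples as an even mixture of males and females. The comparison between genotypes asks whether loss of H2be was accompanied by a difference in these transcripts.

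Neutrophils are short-lived white blood cells made in the bone marrow, and they carry antimicrobial proteins and proteases in granules that are filled in sequence as the cell matures. Azurophil granules, which hold elastase, proteinase 3 and myeloperoxidase, are filled in early marrow precursors, and the transcripts of their proteins are largely shut off before the cell enters the blood. Specific and gelatinase granules follow, with lactoferrin, cathelicidin, lipocalin 2 and collagenase, while S100a8 and S100a9 form calprotectin in the cytosol of mature cells. Lactoferrin and lipocalin 2 are also made by glands and mucosal epithelia, so their transcripts are not limited to neutrophils.

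The stretches upstream of the start sites are shown for the members with the word GAGGAAGT and for Ltf, whose signal followed a course of its own across the arrays. All 10 members had an entry in the RefSeq promoter table (GRCm38.p6), which spans 250 bases before each gene start and 50 after it. The motifs were chosen with these sequences in view. GAGGAAGT, an ETS-type word of the kind bound by the granulocyte factor PU.1, was present on either strand in 5 of the 10 members and in 3.202% of 32851 promoters. TTGCNNAA, a C/EBP-type word, was present on either strand in 5 members (Ngp, Ltf, Lcn2, Mmp8 and S100a9) and in 10.797% of promoters. TATAA on the gene strand was present in 5 members and in 17.543% of promoters. A match is a string of letters and not a measured binding site. Below, 5′ to 3′ along each gene, are the 250 bases that end at the base before the RefSeq start, for Elane (chr10:79886062-79886311, plus strand), Prtn3 (chr10:79879417-79879666, plus), Mpo (chr11:87793534-87793783, plus), Mmp8 (chr9:7558179-7558428, plus), S100a8 (chr3:90668821-90669070, plus) and Ltf (chr9:111019042-111019291, plus). Capitals mark GAGGAAGT or its reverse complement ACTTCCTC, and a TATAA that lies wholly within the printed bases. Matches to TTGCNNAA are not marked.
Elane: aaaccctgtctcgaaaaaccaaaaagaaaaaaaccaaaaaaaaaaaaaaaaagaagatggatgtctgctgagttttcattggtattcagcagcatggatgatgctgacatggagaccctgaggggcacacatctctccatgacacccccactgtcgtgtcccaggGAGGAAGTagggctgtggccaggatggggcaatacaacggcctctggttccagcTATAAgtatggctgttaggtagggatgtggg
Prtn3: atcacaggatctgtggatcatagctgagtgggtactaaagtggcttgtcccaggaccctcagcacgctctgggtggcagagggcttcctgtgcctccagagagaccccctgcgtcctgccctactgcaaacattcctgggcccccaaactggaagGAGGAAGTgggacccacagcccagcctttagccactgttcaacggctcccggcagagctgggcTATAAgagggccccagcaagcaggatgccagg
Mpo: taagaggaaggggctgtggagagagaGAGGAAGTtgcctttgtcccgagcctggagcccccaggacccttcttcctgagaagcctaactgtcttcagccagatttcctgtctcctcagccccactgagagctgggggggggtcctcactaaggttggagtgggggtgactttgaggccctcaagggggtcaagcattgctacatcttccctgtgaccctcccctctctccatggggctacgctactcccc
Mmp8: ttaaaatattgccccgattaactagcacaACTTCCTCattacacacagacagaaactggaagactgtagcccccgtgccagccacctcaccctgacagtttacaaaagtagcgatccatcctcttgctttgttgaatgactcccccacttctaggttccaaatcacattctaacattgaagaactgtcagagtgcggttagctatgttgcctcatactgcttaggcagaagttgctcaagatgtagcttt
S100a8: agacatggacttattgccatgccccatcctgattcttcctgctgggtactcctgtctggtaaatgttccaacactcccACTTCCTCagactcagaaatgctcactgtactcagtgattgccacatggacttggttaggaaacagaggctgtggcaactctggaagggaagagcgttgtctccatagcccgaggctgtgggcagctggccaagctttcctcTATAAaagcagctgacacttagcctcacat
Ltf: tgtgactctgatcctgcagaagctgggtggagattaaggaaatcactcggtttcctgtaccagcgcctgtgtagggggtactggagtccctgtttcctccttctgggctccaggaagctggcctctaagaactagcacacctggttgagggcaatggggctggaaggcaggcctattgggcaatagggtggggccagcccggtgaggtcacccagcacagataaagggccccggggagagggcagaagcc
The GAGGAAGT match began 85 bases before the start of Elane, 95 before that of Prtn3 and 224 before that of Mpo. In Mmp8 and S100a8 the word lay on the opposite strand. A TATAA began 31 bases before the start of Elane, 32 before that of Prtn3 and 30 before that of S100a8. In the other members with this word it lay at the start itself, beginning 1 base before it in Mmp8 and on it in S100a9. Prtn3 and Elane are next to each other on chromosome 10 with no annotated gene between them, as are S100a8 and S100a9 on chromosome 3. Camp, Ngp and Ltf lie on chromosome 9, with 18 annotated genes between Camp and Ngp and 25 between Ngp and Ltf.

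The 12 arrays were of similar overall brightness, with median log2 signals over the experimental probe sets of 7.84 to 7.90 and a correlation of at least 0.951 between any pair of arrays. Omp and Cnga2, markers of mature olfactory neurons, read a mean of 12.9 and 12.2 in H2be-KO and 12.9 and 12.1 in WT, among the bright probe sets. The probe set of H2be, annotated as H2bc21, was 0.24 lower in H2be-KO on the log2 scale (11.65 ± 0.12 against 11.89 ± 0.17, SD, n = 6 each, two-sided exact permutation p = 0.0195). In 3 of 12 fits that left out an array (H2be-KO replicates 4 and 6 and WT replicate 3) its unadjusted limma call was lost, with differences of -0.21, -0.21 and -0.19. Where its probes lie relative to the replaced sequence was not analysed here, so it is no check of the genotype. The mean of Y-linked genes was between 1.61 and 2.28 in replicates 1 to 3 and between 9.35 and 9.71 in replicates 4 to 6 of both genotypes, and the labels give no sex for an array.

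No member differed between the genotypes beyond the spread among arrays. Of the 10, 0 passed limma at an unadjusted p of 0.05, 0 passed the exact permutation test at that level and 0 passed after Benjamini-Hochberg adjustment over all 28151 probe sets. Over all tested probe sets, 5.55% passed the unadjusted threshold (1563, of which 1065 higher and 498 lower in H2be-KO), and the share called after adjustment was 0. The sign was positive for 6 members and negative for 4, and the median difference of the 10 was 0.07 log2 units beside 0.02 for all probe sets. The 95% intervals were wide. Over the members the upper ends lay between 1.41-fold (Ltf) and 2.13-fold (S100a8) and the lower ends between 0.434-fold (Ltf) and 0.695-fold (Mmp8). With 6 arrays per genotype, any change within a gene's own interval remained compatible with its data. Because the arrays report bulk tissue, fewer cells of a type and less RNA per cell cannot be told apart.

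**Figure D1:**
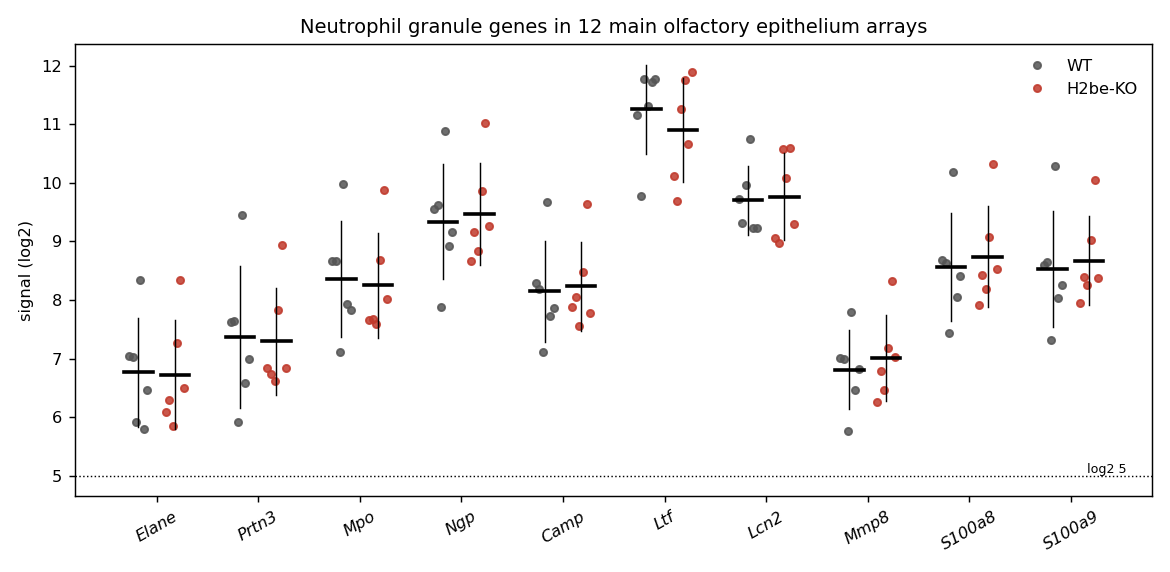
Log2 signal (y axis) of the 10 neutrophil granule genes (x axis) in each of the 12 arrays, WT in grey and H2be-KO in red. Each point is 1 array, thick bars are group means, thin lines are ± 1 SD, and the dotted line is the filter at log2 5. The groups overlap for every gene, and in most genes 1 array of each genotype stands above the rest.

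Elane, neutrophil elastase, ranged in H2be-KO from 5.84 to 8.34 with a median of 6.40, and in WT from 5.81 to 8.34 with a median of 6.74 (log2 signal, 6 arrays each). The brightest arrays of the genotypes were level, and the remaining arrays interleaved. The difference was -0.04 ± 0.45 (SE, 95% interval -0.99 to 0.91, exact permutation p = 0.944). Prtn3, the serine protease proteinase 3, ranged from 6.61 to 8.93 (median 6.84) in H2be-KO and from 5.92 to 9.44 (median 7.31) in WT, an 11.5-fold span over all arrays and the largest of the members. Its lowest and its highest array were both WT. Mpo, which makes hypochlorous acid from hydrogen peroxide, ranged from 7.59 to 9.88 (median 7.84) in H2be-KO and from 7.11 to 9.98 (median 8.29) in WT. The H2be-KO arrays of Prtn3 and Mpo lay within the range of WT. Their differences were -0.07 ± 0.51 and -0.11 ± 0.45 (SE), with exact permutation p = 0.922 and 0.818.

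Among the genes of specific and gelatinase granules, Ngp, a cystatin-like granule protein of mouse neutrophils, ranged from 8.66 to 11.02 (median 9.21) in H2be-KO and from 7.88 to 10.89 (median 9.36) in WT. Camp, the cathelicidin antimicrobial peptide, ranged from 7.56 to 9.64 (median 7.97) in H2be-KO and from 7.12 to 9.68 (median 8.03) in WT. For both genes the 2 brightest arrays were 1 of each genotype, and the medians differed by far less than the span. Their differences were 0.13 ± 0.44 and 0.08 ± 0.39 (SE), with exact permutation p = 0.823 and 0.844. Mmp8, neutrophil collagenase, ranged from 6.26 to 8.33 (median 6.90) in H2be-KO and from 5.76 to 7.79 (median 6.91) in WT. Its difference of 0.20 ± 0.34 (SE, exact permutation p = 0.662) had the largest positive value of the members, and 1 H2be-KO array exceeded all WT arrays.

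Lcn2, lipocalin 2, binds bacterial siderophores and so withholds iron. It ranged from 8.98 to 10.60 (median 9.68) in H2be-KO and from 9.23 to 10.75 (median 9.52) in WT, a 3.41-fold span and the smallest of the members. The H2be-KO arrays were spread over both ends of that span, with 3 at 10.08 or more and 3 at 9.29 or less. The difference was 0.06 ± 0.33 (SE, exact permutation p = 0.898). Ltf, lactoferrin, an iron-binding protein, ranged from 9.69 to 11.89 (median 10.97) in H2be-KO and from 9.78 to 11.78 (median 11.52) in WT. In WT a single array, replicate 2, lay more than 1 log2 unit under the other 5, whereas the H2be-KO signals were spread evenly. The difference of -0.35 ± 0.40 (SE, 95% interval -1.20 to 0.50, exact permutation p = 0.481) was the largest in size of the members, and it was the 1 difference that kept its sign whichever array was left out.

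S100a8 and S100a9, the calcium-binding partners that form calprotectin, gave near-equal profiles. S100a8 ranged from 7.92 to 10.32 (median 8.47) in H2be-KO and from 7.43 to 10.19 (median 8.52) in WT, and S100a9 from 7.95 to 10.05 (median 8.38) and from 7.32 to 10.29 (median 8.43). In each genotype 1 array stood more than 1 log2 unit above the next. The differences were 0.17 ± 0.43 and 0.15 ± 0.42 (SE), with exact permutation p = 0.725 and 0.764. Across the members limma's adjusted p was between 0.813 and 0.982.

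**Figure D2:**
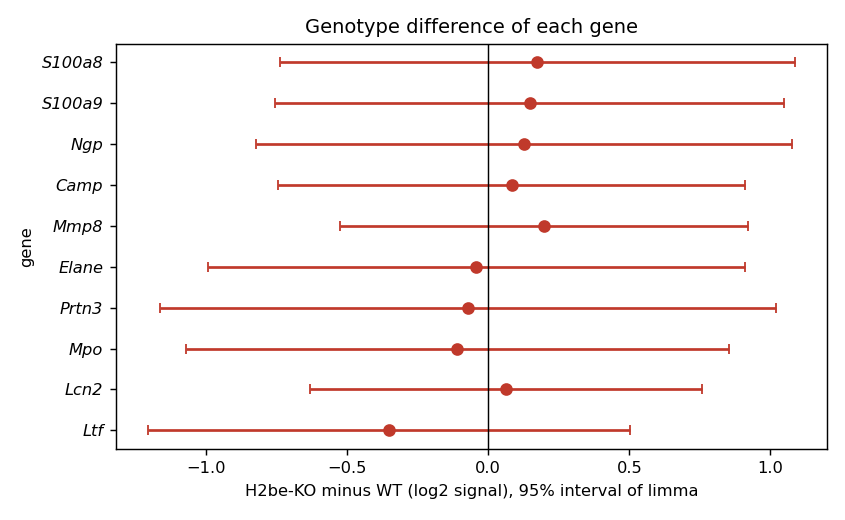
H2be-KO minus WT difference in log2 signal (x axis) of each gene (y axis), with the 95% interval of limma from 6 arrays per genotype. Every interval crosses 0, and points lie between -0.35 for Ltf and 0.20 for Mmp8.

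The small differences between genotypes stood beside large differences between arrays of the same genotype. The SD over the 12 arrays was 0.644 (Lcn2) to 1.02 (Prtn3) log2 units, against a median of 0.201 over all tested probe sets, and only 96 to 272 probe sets had a larger SD than a given member. The same arrays were high for most members. In 9 of the 10, all but Ltf, the 2 highest signals were those of H2be-KO replicate 5 and WT replicate 4, and in 8 the next was H2be-KO replicate 4. S100a8 read 10.32 and 10.19 in the first 2 of these arrays and 9.07 in the third. WT replicate 3 gave the lowest signal of 7 members, with 7.43 for S100a8 and 5.92 for Prtn3. For the 8 members other than Ltf and Lcn2 the gap between the second and the next array was 0.62 to 1.20 log2 units, and for Lcn2 it was 0.03. The 3 arrays with the highest signals of these 8 were among those with high Y-linked signal, but H2be-KO replicate 6 and WT replicates 5 and 6, also high in Y-linked signal, lay under the mean in S100a8. The part of sex in the spread was not tested.

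**Figure D3:**
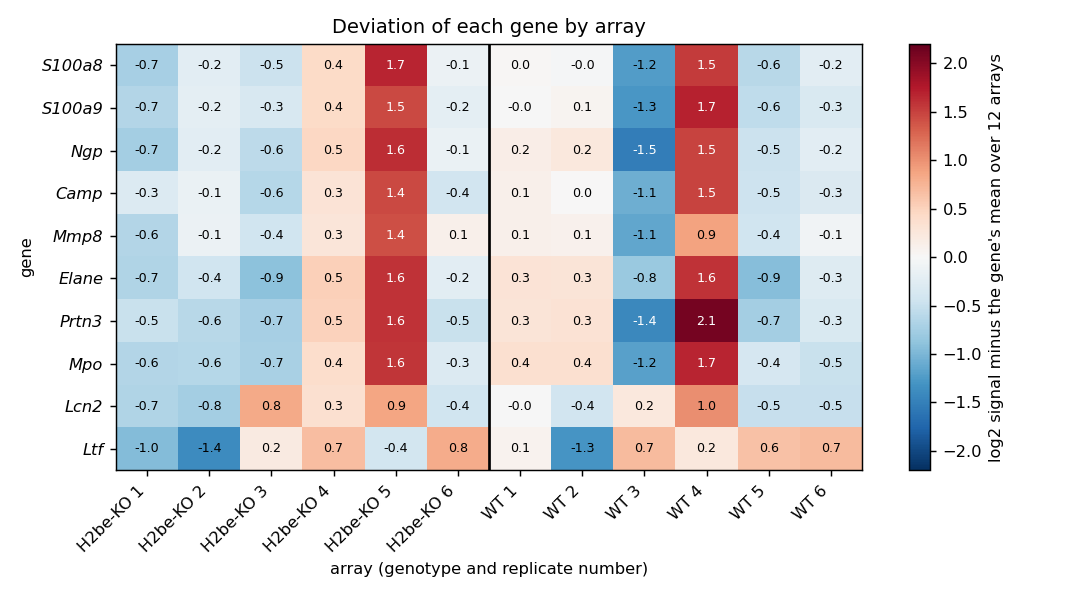
Log2 signal of each gene (rows) in each array (columns) minus that gene's mean over the 12 arrays, with the colour scale in log2 units and the values printed in the cells. H2be-KO 5 and WT 4 are high and WT 3 is low for the upper 8 genes, and the Ltf row follows another order.

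The sign of most differences depended on single arrays. Without H2be-KO replicate 5, all 10 members had a negative difference, from -0.44 (Mpo) to -0.07 (Mmp8). Without WT replicate 4, 9 had a positive difference, up to 0.50 for S100a8 and S100a9, and Ltf stayed at -0.34. Without WT replicate 3, 9 were negative and Lcn2 was at 0.12. With both H2be-KO replicate 5 and WT replicate 4 left out, an alternative chosen after seeing the data, differences lay between -0.29 and 0.22 and 0 members passed an unadjusted p of 0.05.

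The signals of 8 members rose and fell together across the arrays. Pearson and Spearman correlations were computed over the 12 arrays for all 45 pairs, with permutation p-values from 100000 resamples adjusted over the 45, where 1e-05 is the smallest p the resamples can give. The 28 pairs among Elane, Prtn3, Mpo, Ngp, Camp, Mmp8, S100a8 and S100a9, a grouping made after the values were seen, had r between 0.915 and 0.992 and rho between 0.811 and 0.986. All 28 passed the adjusted permutation test by both measures, with the largest adjusted permutation p at 9.64e-05 for r and 0.00357 for rho. S100a8 and S100a9 were the closest pair by r, with r = 0.992 and rho = 0.979 (adjusted permutation p = 3e-05 and 0.0001125). Their difference within an array had an SD of 0.106 log2 units. The neighbours Elane and Prtn3 had r = 0.970 and rho = 0.958 (adjusted permutation p = 3e-05 and 0.00015). Between granule classes r was 0.958 and rho 0.930 for Elane and S100a8 (adjusted permutation p = 3e-05 and 0.000225). The lowest r of the 28 was 0.915 for Prtn3 and Mmp8, with rho = 0.902 (adjusted permutation p = 9.64e-05 and 0.00045). Whether pairs within a class were closer than pairs between classes was not tested.

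The relation among the 8 did not rest on the 2 brightest arrays. Without H2be-KO replicate 5 and WT replicate 4, r was 0.808 to 0.987. For most pairs these were also the 2 arrays farthest from the median of the gene on the x axis. Leaving out the farthest arrays gave the same range and is no separate check. Within the 6 H2be-KO arrays r was 0.924 to 0.999, and within the 6 WT arrays it was 0.913 to 0.998, with exact permutation p of at most 0.0208 and 0.00972. After the mean of each genotype and the mean of Y-linked genes were removed, S100a8 and S100a9 still had r = 0.991. The members share normalised arrays, and each pool is the source of all its values, so the pairs are not independent of each other.

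Lcn2 was more loosely related to the 8 genes. Its r with them was 0.479 to 0.612, and 1 of the 8 relations, that with S100a9 (r = 0.612, adjusted permutation p = 0.0495, rho = 0.532 with adjusted permutation p = 0.111), passed. Without H2be-KO replicate 5 and WT replicate 4, r fell to between -0.19 and 0.04, and with S100a8 it was 0.01. In H2be-KO replicate 3 Lcn2 read 10.57, near the top of its range, while S100a8 read 8.19, under its mean. For Ltf no relation to another member was detectable with 12 arrays. Its r was -0.18 to 0.29 over its 9 pairs, of which 0 passed with either coefficient. With S100a8 r was -0.08 and rho -0.18 (adjusted permutation p = 0.828 and 0.629). With the genotype means and the Y-linked mean removed, an alternative chosen after seeing the data, r of S100a8 and Ltf was -0.54 (adjusted permutation p = 0.0796 over 12 arrays). H2be-KO replicate 5, the highest array for S100a8, read 10.67 for Ltf, under its mean, and WT replicate 3, the lowest for S100a8, read 11.78.

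**Figure D4:**
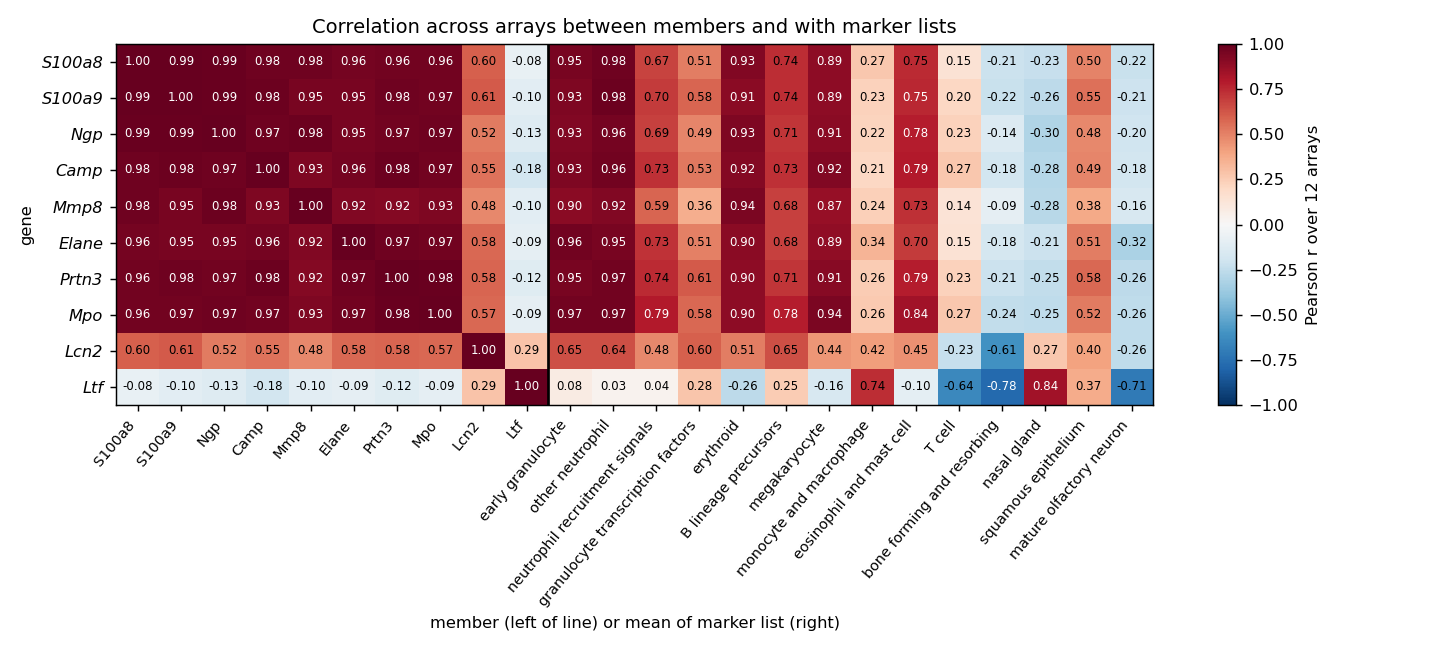
Pearson correlation over the 12 arrays of each neutrophil granule gene (rows) with every other member (left of the line) and with the mean log2 signal of 14 marker lists (right of the line), on a colour scale from -1 to 1. The first 8 genes form a block of high values that extends to the early granulocyte, other neutrophil, erythroid and megakaryocyte lists, and Ltf reaches its highest value with the nasal gland list.

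Markers of other cells moved with the 8 genes to different degrees. Each member was set against the mean of 14 marker lists, 140 relations in all, of which 61 passed at an adjusted permutation p of 0.05. With the early granulocyte list (10 probe sets, with Ctsg, Ms4a3 and Fcnb, genes of marrow precursors) r of the 8 was 0.904 to 0.968, and with the list of other neutrophil genes (27 probe sets) it was 0.922 to 0.979. Without the 2 brightest arrays these were 0.675 to 0.885 and 0.825 to 0.926. The early granulocyte list ranged from 7.56 to 8.46 in H2be-KO and from 7.63 to 8.44 in WT, with 0 of 10 probe sets called, and the other neutrophil list from 7.02 to 7.69 and from 6.88 to 7.81, with 0 of 27 called. Of the other neutrophil probe sets, 15 of 27 had r above 0.7 with S100a8, beside 1.3% of all non-member probe sets. Of the early granulocyte probe sets, 5 of 10 did, while Cebpe had 0.044 and Cd63 0.40. Ly6g, the surface marker that defines mouse neutrophils, followed S100a8 with r = 0.958, from 4.52 in WT replicate 3, near background, to 7.52 in H2be-KO replicate 5. Ctsg, cathepsin G of azurophil granules, had r = 0.903.

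Lists of other blood lineages behaved alike in part. With the erythroid list (11 probe sets, with hemoglobin, Alas2 and Slc4a1), r of the 8 was 0.895 to 0.944, and 0.790 to 0.874 without H2be-KO replicate 5 and WT replicate 4. With the 4 megakaryocyte probe sets it was 0.868 to 0.944, and 0.551 to 0.798 without them. The erythroid mean ranged from 8.94 to 9.67 in H2be-KO and from 8.71 to 9.39 in WT, and the megakaryocyte mean from 8.02 to 8.76 and from 8.02 to 8.72. Slc4a1, the red cell anion exchanger, rose from 7.06 in WT replicate 3 to 9.27 in H2be-KO replicate 5, and Pf4, a platelet chemokine, reached its maximum of 9.36 in the same array. Of the erythroid probe sets 8 of 11, and of the megakaryocyte probe sets 2 of 4, had r above 0.7 with S100a8. The erythroid 8 include 2 probe sets of the Hba genes (r = 0.902 and 0.893) and 2 of the Hbb genes. Those of Hbb gave the same values (r = 0.811). Hemoglobin is thus counted repeatedly in this number and in the erythroid mean. Klf1, at 0.18, and Treml1, at 0.41, were among those that did not. With eosinophil and mast cell genes r was 0.698 to 0.842, and with B lineage precursors it was 0.680 to 0.783, but by rho 1 of 8 and 0 of 8 relations passed, and without the 2 brightest arrays r was 0.237 to 0.639 and 0.103 to 0.385. Of the eosinophil and mast cell probe sets 2 of 9, and of the B lineage probe sets 1 of 11, had r above 0.7 with S100a8. Siglecf had 0.052 and Dntt -0.33. The part of these lineages in the spread of the members was not tested.

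For markers of the tissue itself and of other leukocytes, none of the 8 passed the adjusted permutation test. Their r was 0.206 to 0.337 with monocyte and macrophage genes, 0.135 to 0.273 with T cell genes, -0.243 to -0.0893 with genes that form and resorb bone, -0.303 to -0.211 with nasal gland genes and -0.316 to -0.162 with mature olfactory neuron genes. It was 0.365 to 0.612 with the transcription factors of granulocyte development (Cebpa, Cebpe, Spi1, Gfi1 and others), and 0.375 to 0.578 with squamous epithelium. Some of these ranges changed with the arrays used. Without H2be-KO replicate 5 and WT replicate 4, r with bone genes was 0.220 to 0.446. With squamous epithelium r was 0.80 to 0.91 within WT and -0.25 to -0.03 within H2be-KO. With the transcription factors it was 0.68 to 0.85 within WT and -0.03 to 0.18 within H2be-KO. With neutrophil recruitment signals, the chemokines and cytokines that draw neutrophils into tissue, r was 0.586 to 0.794 and 7 of 8 relations passed, but only 1 did by rho. Within that list 1 of 13 probe sets had r above 0.7 with S100a8. It was Ppbp (r = 0.910), a platelet chemokine, whereas Cxcl1 had r = 0.108, Cxcl2 0.290 and Il1b -0.0379.

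**Figure D5:**
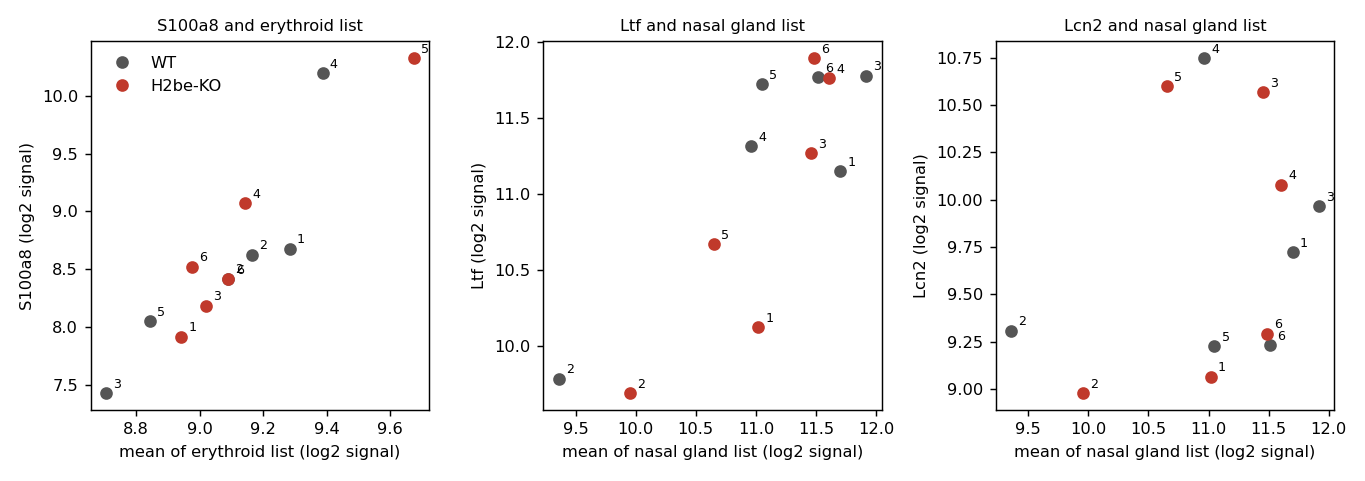
Log2 signal of S100a8 against the erythroid list mean, and of Ltf and Lcn2 against the nasal gland list mean, with 1 point per array labelled by replicate number, WT in grey and H2be-KO in red. S100a8 rises with the erythroid mean from WT 3 to H2be-KO 5 (r = 0.927), Ltf rises with the nasal gland mean (r = 0.838), and Lcn2 shows no such course (r = 0.268).

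Ltf followed the mean of the nasal gland list. Its r with the nasal gland list (12 probe sets, with odorant binding proteins, lipocalins, mucins and BPI-fold proteins) was 0.838 (rho = 0.734, adjusted permutation p = 0.00354 and 0.0366). Without the 2 arrays farthest from its median, H2be-KO replicate 2 and WT replicate 2, r was 0.585, and within genotypes it was 0.882 and 0.880 (exact permutation p = 0.0153 in H2be-KO and 0.0708 in WT). The nasal gland mean ranged from 9.95 to 11.61 in H2be-KO and from 9.36 to 11.92 in WT, and it was lowest in those same 2 arrays. Of the 12 nasal gland probe sets, 7 had r above 0.7 with Ltf and 0 with S100a8, beside 3.49% and 1.3% of all non-member probe sets. Muc5ac, a gel-forming mucin, had r = 0.867 with Ltf, and Obp1a, an odorant binding protein, 0.703. Bpifb9b, Scgb3a1 and Bpifb9a ran opposite, with -0.487, -0.482 and -0.448. The list mean was not scaled by spread, and its probe sets spanned from 1.12-fold (Scgb1c1) to 250-fold (Lcn4) over the arrays. Ltf also rose with monocyte and macrophage genes (r = 0.736, adjusted permutation p = 0.0159) and ran opposite to bone genes (r = -0.780, adjusted permutation p = 0.0104) and mature olfactory neuron genes (r = -0.705, adjusted permutation p = 0.0250). By rho the last relation passed (-0.769, adjusted permutation p = 0.0273) and the other 2 did not (0.657 and -0.566, adjusted permutation p = 0.0767 and 0.149). Lcn2 did not share this course over the 12 arrays. Its r with the nasal gland list was 0.268 and its rho 0.133 (adjusted permutation p = 0.558 and 0.749). Without H2be-KO replicate 5 and WT replicate 4 this r was 0.515. It was -0.20 without the 2 arrays farthest from the list's median. By r, Lcn2 passed with the early granulocyte (0.648) and other neutrophil (0.643) lists, each at adjusted permutation p = 0.0471. By rho it passed with neither, and without the 2 brightest arrays these r were 0.127 and 0.098. The part of gland tissue in the Ltf signal was not tested.

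The probe sets whose profile was most like the mean of the 10 members, each centred on its own mean, were Cybb (r = 0.982), Coro1a (0.970), Itgb2 (0.968), Ifitm6 (0.963), Alox5ap (0.962), Rac2 (0.957), Retnlg (0.951), Fcnb (0.948), Ncf1 (0.945) and Ly6a2 (0.944) over the 12 arrays, given as a description. Cybb and Ncf1 encode parts of the NADPH oxidase that makes superoxide in phagocytes, Itgb2 the beta chain of leukocyte integrins, and Rac2 a small GTPase of blood cells. Beyond S100a8 itself, 52 probe sets had r above 0.9 with it, and 7 of them were members. Those 7 were the other genes of the block whose upstream stretches are shown in part above, Ltf and Lcn2 not among them.

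Between genotypes, few marker probe sets outside the members passed even the unadjusted threshold. Cxcl1, a chemokine that attracts neutrophils, was 0.28 lower in H2be-KO (8.32 ± 0.18 against 8.60 ± 0.22, SD, n = 6 each, exact permutation p = 0.0368, limma adjusted p = 0.753), and it was the 1 of 13 recruitment signals called, beside the 5.55% of all probe sets. Kel, a red cell surface antigen, was 0.29 lower (exact permutation p = 0.0649) and Blnk, a B cell adaptor, 0.22 higher (exact permutation p = 0.0303), each with a limma adjusted p of 0.753. Each call was lost in some fits that left out an array, while the difference kept its sign in all 12. The largest unadjusted limma p in these fits was 0.0635 for Cxcl1, 0.0725 for Blnk and 0.116 for Kel. Cxcl1 lost its unadjusted limma call in 4 of 12 fits that left out an array (H2be-KO replicates 3, 5 and 6 and WT replicate 4, differences of -0.23, -0.25, -0.26 and -0.21), and without H2be-KO replicate 5 and WT replicate 4 together its difference was -0.19. Blnk lost its call in 5 of 12 (H2be-KO replicates 2, 3 and 5 and WT replicates 1 and 5, differences of 0.18 to 0.21). Kel kept its call only without H2be-KO replicate 1 or WT replicate 3 or 6, and its difference ran from -0.38 to -0.21 over the 12 fits. In the early granulocyte, other neutrophil and granulocyte transcription factor lists 0 of 10, 0 of 27 and 0 of 9 probe sets passed limma's unadjusted threshold. The smallest p of the transcription factors was that of Gfi1, a repressor needed for neutrophil maturation, at 6.12 ± 0.24 against 5.86 ± 0.32 (SD, n = 6 each, exact permutation p = 0.136).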

How the data were processed

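RNA of whole main olfactory epithelium from H2be-KO and WT mice aged 6 months was measured on 12 arrays, 6 of each genotype, grouped by the sample titles. In Affymetrix Expression Console the authors combined probes by IterPLIER and scaled arrays by sketch-quantile normalization, after an outlier screen, and they tested with limma. The sources used here name neither tool versions nor the annotation build. Deposited log2 signals cover 35556 probe sets and were compared only within a probe set, and signals near 5 lie near background. Control probe sets (6612) were left out. Of the 28944 others, 21789 had 1 gene symbol, 1621 several and 5534 none.

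limma 3.58.1 in R 4.3.3 was fitted with genotype as its only term over 28151 probe sets with a mean above 5. Single genes were tested by two-sided exact permutation over all choices of 6 of 12 arrays, whose smallest possible p is 0.00216. Correlations carry permutation p-values, exact over pairings within a genotype. Benjamini-Hochberg adjustment gave every p called adjusted and was used in counting the correlations that passed. Exact permutation p-values, for single genes or within a genotype, are printed unadjusted. Scripts were tested on simulated data. Members and lists were chosen with earlier results of these data known. Besides the members, the text names up to 4 genes of each list under an unadjusted p of 0.05 or else up to 2 of smallest p, and the 10 probe sets most like the members' mean profile. Other genes named with a correlation were chosen after their values were seen. The number of arrays limits the precision. Arrays of a genotype are separate pools, and the labels name no batch. Alternatives covered the filter, a floor, quantile and median scaling, array weights, eBayes with trend, averaging by symbol, Y-linked genes as a covariate, a replicate block, rank correlation and each array left out. Replicate numbers were not treated as pairs.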

Additional observations from a re-analysis of the deposited data

Results flagged for a closer look

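Some values stood apart from the other 5 arrays of their genotype, in that the gap to the nearest array was a large share of the group's whole range. Over 48 groups examined (the members and list means in each genotype), chance gives about 1 such group in 20. Among the members this was so for Ltf in WT, where replicate 2 at 9.78 lay below the next array at 11.15, a gap of 0.686 of the range. The mean of nasal gland genes was also low in that array, at 9.36 against 10.96 for the next (0.627).

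WT replicate 4, 1 of the 2 arrays in which most members were highest, stood above the other WT arrays in the early granulocyte list (8.44 against 7.92, 0.641), other neutrophil genes (7.81 against 7.22, 0.627), granulocyte transcription factors (8.47 against 8.21, 0.698) and squamous epithelium genes (7.83 against 7.06, 0.763). H2be-KO replicate 5, the other of the 2, stood above the other H2be-KO arrays in the erythroid list (9.67 against 9.14, 0.725), the megakaryocyte list (8.76 against 8.28, 0.655) and the eosinophil and mast cell list (7.55 against 7.08, 0.685). The squamous list mean of H2be-KO replicate 5 was 6.71, the lowest of the 12 arrays. The part of these differences in the members' signals was not tested.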

How the results depend on the processing

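No member passed an unadjusted p of 0.05 under any setting run, and the directions of 9 of 10 differences turned when single arrays were left out. The smallest unadjusted limma p over all settings was 0.0802, for Ltf without WT replicate 2. Other changes of scale or filter kept all 10 signs, except array weights, which gave 0.10 for Elane and 0.063 for Prtn3, and leaving out H2be-KO replicate 5 and WT replicate 4 together, which gave 0.016 for Prtn3. The cause was not tested.

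With each array left out in turn, differences ran from -0.40 to 0.34 for Prtn3, -0.36 to 0.27 for Elane, -0.44 to 0.22 for Mpo, -0.10 to 0.27 for Lcn2, -0.14 to 0.50 for S100a8, -0.13 to 0.50 for S100a9, -0.067 to 0.39 for Mmp8, -0.19 to 0.44 for Ngp, -0.65 to -0.11 for Ltf and -0.20 to 0.39 for Camp, and the median of the members from -0.19 to 0.37. In each but Ltf the lowest value came without H2be-KO replicate 5 and the highest without WT replicate 4. Over all probe sets, counts higher ran from 513 (without H2be-KO replicate 5) to 2265 (without WT replicate 6) and lower from 312 (without WT replicate 4) to 1554 (without WT replicate 6). Over the marker lists they ran from 0 to 4 higher and 0 to 7 lower. Pairs of members past the adjusted threshold numbered 28 to 36, and member and list relations 40 to 62. The r of S100a8 and Ltf ran from -0.20 to 0.054.

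Replicate numbers were not shown to pair the arrays, since deviations of same-numbered arrays correlated at 0.09, 0.592, 0.393, 0.319, 0.025 and 0.377. In the fit with a replicate block, differences were as before (0.17 for S100a8), 0 members were called, and all probe sets called rose to 2039 higher and 951 lower. Marker list calls were then 3 higher and 12 lower.

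Array weights gave 2694 higher and 1405 lower over all probe sets, and 2 and 7 in the marker lists. Averaging by symbol gave 667 higher. Quantile normalization gave 899 lower, and 4 lower in the marker lists. Without H2be-KO replicate 5 and WT replicate 4, 471 were higher and 226 lower, and in the marker lists 0 and 1. Marker list calls were 1 lower with trended, robust moderation and with Y-linked genes as a covariate. Of the member and list relations, 36 passed by rho, 4 within H2be-KO, 17 within WT, 21 without the 2 arrays farthest from the median and 25 without the 2 brightest. S100a8 and Ltf had r = 0.14 within H2be-KO. Without the 2 farthest arrays r was -0.080 for Ltf and Lcn2 and -0.20 for Lcn2 and the nasal gland list. The alternatives without the 2 brightest arrays and with deviations from the Y-linked mean were chosen after seeing the data. Signals near background and 6 arrays per genotype limit what could be detected.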

Other observations

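Within the list of other neutrophil genes, Pglyrp1, a peptidoglycan recognition protein stored in neutrophil granules, followed Ltf (r = 0.923) and not S100a8 (r = 0.0977), with a 3.64-fold span over the arrays. Adam8, a leukocyte metalloprotease, did likewise (0.804 and 0.108). These 2 were the probe sets of the 27 with r above 0.7 to Ltf. The probe sets of the whole array most like Ltf were Klk14 (r = 0.966), Bace2 (0.957), Atp2a3 (0.954), Atp10a (0.950) and Ldhd (0.950), and over all non-member probe sets 3.49% had r above 0.7 with Ltf. Those most like Lcn2 with 1 gene symbol included Tspan18 (r = 0.917), Tns3 (0.888) and Gdf10 (0.871). All were chosen after their values were seen and are given as descriptions over 12 arrays.

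Prg2, the major basic protein of eosinophil granules, spanned 11.4-fold over the arrays, from 5.57 in WT replicate 3 to 9.08 in H2be-KO replicate 5, and had r = 0.793 with S100a8. It was among only 2 of 9 eosinophil and mast cell probe sets with r above 0.7, whereas Siglecf had 0.052.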
